A study of Drosophila melanogaster with 4 samples.

Results

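The sequences XHet and YHet of the Drosophila melanogaster genome hold assembled heterochromatin of the X and of the Y chromosome that is not part of a chromosome arm. They were cut into consecutive windows of 1 kb, counted from the first base, and the last partial window was dropped. This gave 204 windows on XHet and 347 on YHet, 551 of the 139706 windows on all sequences without the unplaced sequence Uextra, on which no list has a cluster. The rule for the windows uses position alone, but it was chosen with earlier results of these data known.

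HP1a, the protein mapped here, was immunoprecipitated with the antibody wa191 from nuclei of wild-type Oregon-R larvae of the third instar. The 2 ChIP libraries, replicates 1 and 2, were each called against the input library of the same replicate number, so 4 libraries stand behind the lists. The deposited lists give enriched clusters, each with a start, an end and 1 value. There is a list per ChIP library and a list of the whole series. The sex of the larvae is not stated in the labels, so how many X and Y copies the chromatin held is unknown. The labels do not state that the replicates are separate collections of larvae, so their spread may be technical.

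HP1a binds histone H3 that is methylated on a lysine of its tail and packs chromatin into a compact, mostly silent form. It is concentrated around centromeres, where repeated sequences and remnants of transposable elements lie. The X of Drosophila is largely euchromatic, with heterochromatin near its centromere that also holds an array of ribosomal RNA genes. The Y is heterochromatic throughout, is rich in simple repeats and carries a few genes needed for sperm formation. No gene is placed on the windows below, since the available gene table has Release 6 positions and the clusters have those of FlyBase release 5. For the same reason no sequence is printed.

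Both sequences carried HP1a over a large part of their length, and the median enrichment of windows with a cluster was lower on XHet. The cluster value is read as the log2 of ChIP over input, and a window takes the value of the cluster that overlaps it most. Of the 204 windows of XHet, 89 (43.6%) were at least 50% covered by clusters in both replicates, as were 111 of the 347 windows of YHet (32.0%). Over all windows of the genome this share was 12.8%. In the single lists, 101 windows of XHet in replicate 1 and 108 in replicate 2 passed, against 135 and 175 windows of YHet. The same shares over the genome were 13.7% in replicate 1 and 14.7% in replicate 2.

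Counted in bases, 49.5% of XHet lay under clusters in replicate 1 and 53.9% in replicate 2. On YHet these shares were 38.2% and 50.1%. XHet was thus the more covered of the pair in each library, by 11.3 percentage points in replicate 1 and by 3.82 in replicate 2, a mean of 7.58 ± 5.32 (SD, n = 2). Both libraries gave the same direction, while YHet alone differed by 11.9 points between its replicates. It turned around when only clusters whose value reached their list's median were kept, to -9.87 percentage points (XHet minus YHet). Bases that reads could not be assigned to also count as uncovered, and their number on either sequence is unknown.

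The median values separated the sequences in both libraries, though their window values overlapped. The median window value of XHet was 1.67 (3.18-fold over input) in replicate 1 and 1.35 (2.55-fold) in replicate 2. On YHet it was 2.33 (5.01-fold) and 2.13 (4.38-fold). Each XHet median lay between those of its unlike stretches described below, 0.96 and 2.19 in replicate 1 and 0.94 and 2.29 in replicate 2. YHet was higher by 0.65 in replicate 1 and by 0.78 in replicate 2, a mean of 0.72 ± 0.09 (SD, n = 2), and the lowest YHet median lay above the highest XHet median. No test was run, because the smallest p of an exact permutation test over 2 paired libraries is 0.5. The difference was 0.42 with windows of 500 bp, and 0.018 among clusters whose value reached their list's median.

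The sequences differed at both ends of the values. Of its 124 windows with a value in replicate 1, 34 (27.4%) were below 1, and in replicate 2 this held for 36 of 132 (27.3%). On YHet no window was below 1 among the 166 with a value in replicate 1 and the 209 in replicate 2. Values exist only inside called clusters, whose threshold is unknown. In replicates 1 and 2, 181 and 138 of the 347 YHet windows and 80 and 72 of the 204 XHet windows had none. Weaker enrichment in such windows would not be seen here. The lowest cluster value on YHet was 1.34 in replicate 1 (224644 to 226344) and 1.48 in replicate 2 (189979 to 191744). On XHet it was 0.71 (82345 to 85717) and 0.56 (52795 to 54241). At the upper end, 49.2% and 45.5% of XHet windows with a value reached 2, against 77.7% and 65.6% on YHet. Windows under 1 cluster share its value. Counted in clusters, 5 of 22 and 3 of 23 on XHet reached 2, against 31 of 45 and 25 of 40 on YHet. The middle 50% of window values ran from 0.96 to 2.19 and from 0.86 to 2.29 on XHet, and from 2.08 to 2.52 and from 1.90 to 2.38 on YHet.

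**Figure D1:**
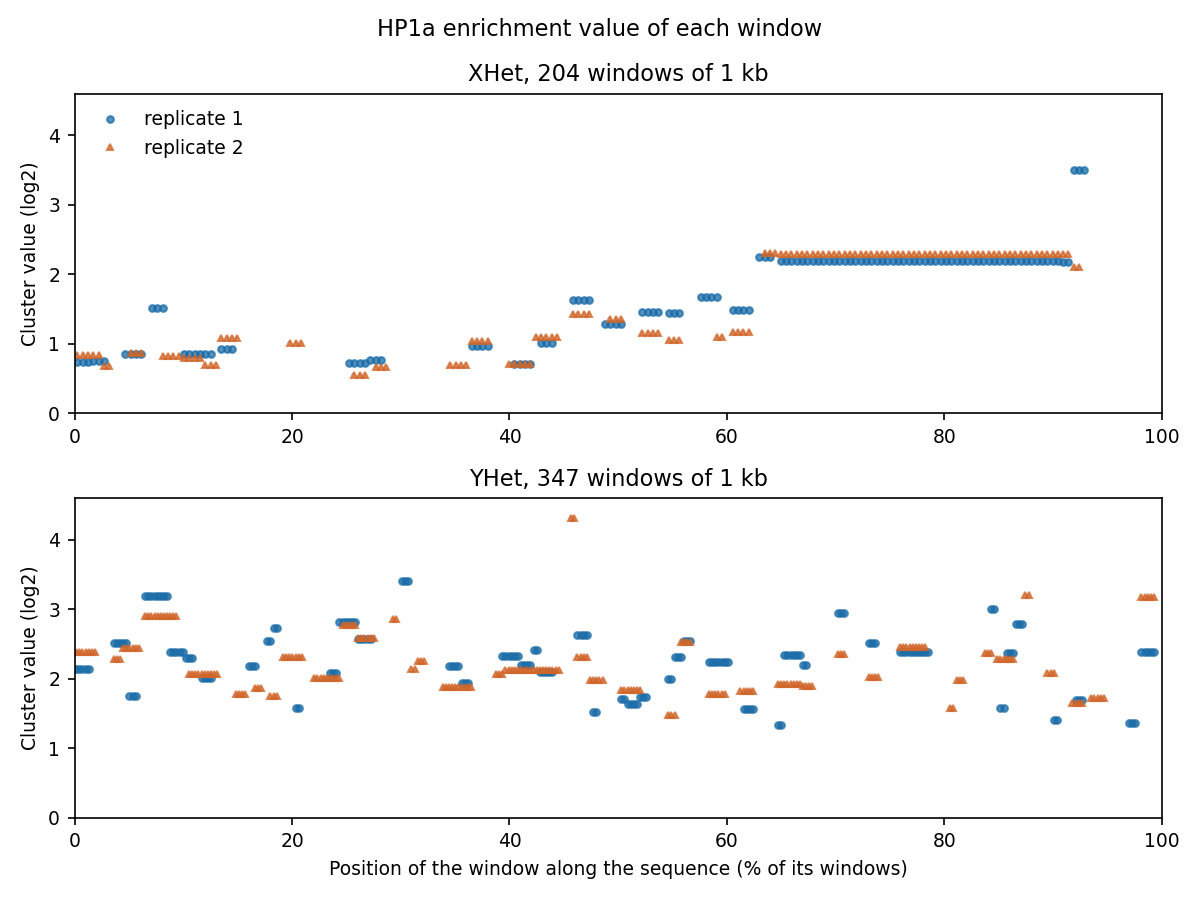
Value of each 1 kb window (log2, the cluster with most overlap) against its position along XHet and YHet, as a percentage of the windows of each sequence. Circles are replicate 1 and triangles replicate 2, and windows with no cluster have no point. On XHet the values step from 1.67 or less to 2.11 or more at the same place in both replicates, and on YHet all values are 1.34 or more along the whole sequence.

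XHet was made of unlike stretches. From its start to 128 kb, replicate 1 had 17 clusters with values from 0.71 to 1.67 and replicate 2 had 20 with values from 0.56 to 1.43. The first cluster above 2 began at 128768 in replicate 1 and at 129838 in replicate 2. From there on, the 5 clusters of replicate 1 had values from 2.17 to 3.50 and the 3 of replicate 2 values from 2.11 to 2.31, and no XHet cluster of either replicate had a value between 1.67 and 2.11. The split was set at this step after the values were seen, so it is given as a description with no test.

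Cover changed at the same step. Clusters covered 34.3% of the first 128 windows in replicate 1 and 40.8% in replicate 2, and 75.1% and 75.9% of the other 76. The median window value of the first stretch was 0.96 in replicate 1 and 0.94 in replicate 2. The arm sequence of the X had 0.94 and 0.90, at a cover of only 5.24% and 5.54%. The second stretch had medians of 2.19 and 2.29, in the range of the YHet medians of 2.33 and 2.13. Which end of XHet lies nearer the centromere is not given in the sources used here.

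The second stretch was mainly 1 domain. In replicate 2 a single cluster ran from 132116 to 186881, 54.8 kb wide, with a value of 2.29 or 4.88-fold. Replicate 1 split the same domain into clusters from 132113 to 153113 (2.19) and from 154603 to 184702 (2.19), 21.0 kb and 30.1 kb wide, and a narrow one from 184854 to 186770 (2.17). With these replicate 1 clusters taken as the domain, its start differed by 3 bases between the replicates and its end by 111. The end depends on that choice, since the 30.1 kb cluster alone ended 2179 bp from the replicate 2 end. With clusters within 1 kb joined, the widest was 34512 bp in replicate 1 and 59141 bp in replicate 2. Replicate 1 clusters covered 96.8% of the 54.8 kb replicate 2 cluster. The series list had 1 cluster there, 54917 bp wide, with a value of 2.23. Apart from the clusters of 54.8 kb, 30.1 kb and 21.0 kb, the widest of XHet was 4431 bp in replicate 1 and 3792 bp in replicate 2.

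Beyond the domain little of XHet was covered. A last cluster ran from 187031 to 189114 in replicate 1. Its value of 3.50 (11.3-fold), held by 2 clusters of that list, was the highest of XHet there. Its partner in replicate 2, from 187530 to 188978, had 2.11 (4.30-fold), and the series list had 1.52 there. This was the largest gap between matched values on XHet, 1.39 on the log2 scale. The 15 windows from 189001 to 204000 were covered in neither replicate, the longest such run of XHet. The series list covered 19.2% of them, partly with 2 clusters of 1001 bp and 1027 bp, with values of 2.32 and 3.99. The other long uncovered runs of XHet were 58001 to 70000 and 30001 to 41000, of 12 kb and 11 kb, both in the first stretch. The longest run covered in both replicates outside the domain was 21001 to 25000, of 4 kb.

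Within the first stretch the cover itself varied. The bin of 20 kb from 60001 to 80000 was the least covered of the 10 whole bins, with 11.7% in replicate 1 and 26.0% in replicate 2. The bin from 160001 to 180000 in the domain was covered over 100% in both. The median values of the first 4 bins ran from 0.72 to 0.96 in replicate 1 and from 0.66 to 0.87 in replicate 2. They were 1.01 and 1.10 in the bin from 80001 to 100000, and 1.46 and 1.15 in the bin from 100001 to 120000. The last of these were above the values of the first 4 bins and below those of the domain in both replicates.

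**Figure D2:**
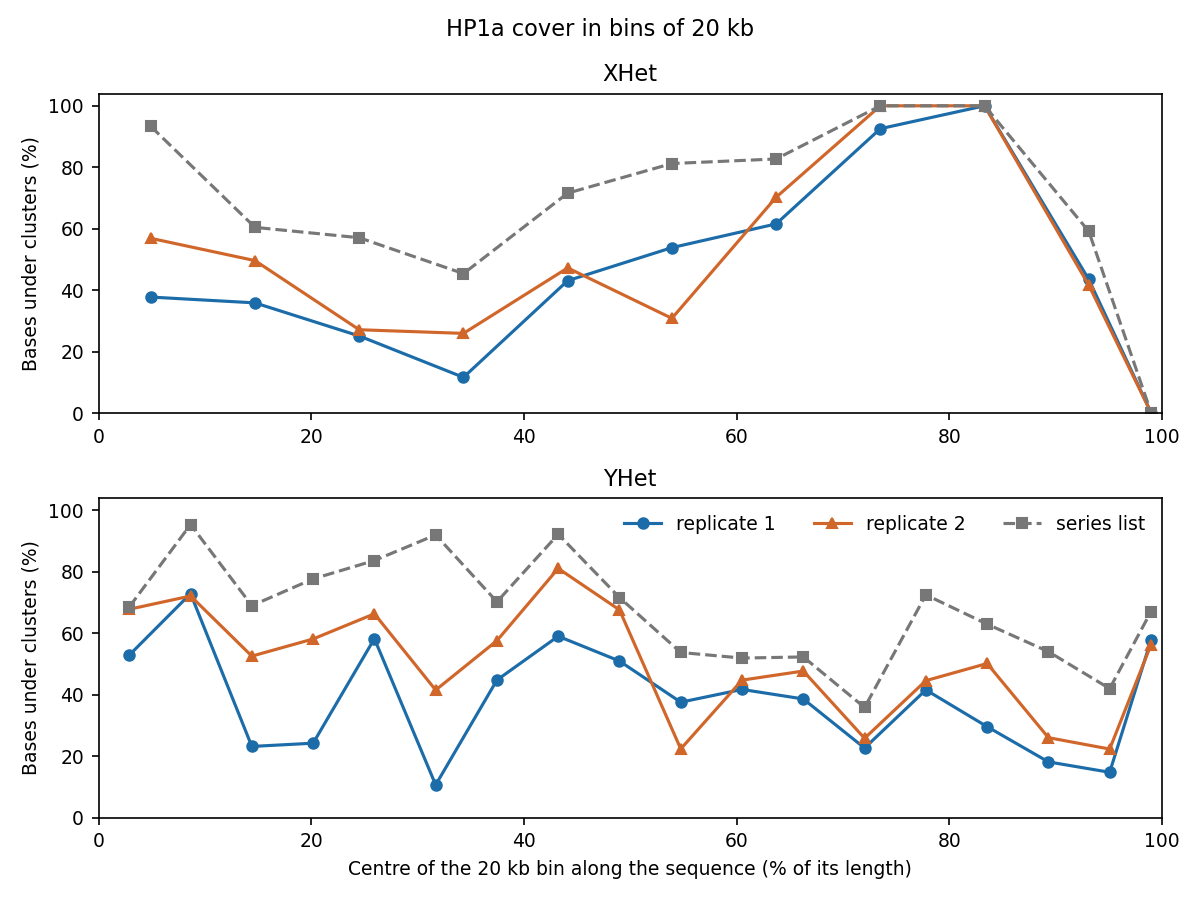
Percentage of bases under clusters in bins of 20 kb along XHet and YHet, for replicate 1, replicate 2 and the series list. The last bin of each sequence is shorter, with 4 windows on XHet and 7 on YHet, and each line joins the bins of 1 list. XHet reaches 100% in 1 bin of both replicates and 0% in its last bin, while no whole bin of YHet exceeds 81.1% in a replicate.

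YHet had no such domain and was patchy along its length. Its widest clusters in replicate 1 ran from 263842 to 272164 (8323 bp, value 2.39), from 22072 to 30294 (8223 bp, 3.19) and from 83796 to 89988 (6193 bp, 2.81). In replicate 2 they ran from 137310 to 154840 (17531 bp, 2.13), from 22065 to 32457 (10393 bp, 2.91) and from 117477 to 126043 (8567 bp, 1.89). The other replicate covered between 69.5% and 100% of each. The longest runs of windows covered in both replicates were 137001 to 152000 (15 kb), 22001 to 32000 (10 kb) and 119001 to 126000 (7 kb). The longest such run of XHet was 32 kb.

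Part of the block from 22 kb to 32 kb of YHet was also high in value in the replicates. Its cluster began at 22072 in replicate 1 and at 22065 in replicate 2, with 9.11-fold and 7.51-fold enrichment, where the medians of YHet were 5.01-fold and 4.38-fold. In replicate 1 this cluster ended at 30294, and the next, from 30556 to 34822, had 5.22-fold. The series list gave a cluster from 21844 to 45208 a value of 2.34 (5.06-fold). Near the end of the sequence, a cluster from 340740 to 344787 in replicate 1 and from 340731 to 344671 in replicate 2 was also placed alike. Its value differed, with 2.38 in replicate 1 and 3.17 in replicate 2. The first window of YHet was covered over 94.5% and 83.6%, and that of XHet over 10.3% and 1.40%. The last window of each sequence was uncovered in all 3 lists.

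Cover on YHet was lower in its second part. The first 173 windows were covered over 43.0% in replicate 1 and 61.9% in replicate 2, and the other 174 over 33.4% and 38.3%. Both replicates moved the same way, but the means of 52.4% ± 13.4 and 35.9% ± 3.46 (SD, n = 2) differed by little more than the spread of the first part. The bin from 320001 to 340000 was among the lowest, with 14.8% and 22.4%, and the bin from 20001 to 40000 among the highest, with 72.9% and 72.2%. Between them the bin from 100001 to 120000 had 10.7% in replicate 1, 41.6% in replicate 2 and 92.0% in the series list. The longest runs covered in neither replicate were 216001 to 225000 and 328001 to 337000, of 9 kb each, and 126001 to 134000, of 8 kb.

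Over their whole length, the replicates placed clusters less alike on YHet than on XHet. On XHet, 173 of 204 windows were in the same state in both replicates, 84.8% of them, and 12 were covered in replicate 1 alone and 19 in replicate 2 alone. Their longest runs were 117001 to 120000 (3 kb) for replicate 1 and 17001 to 21000 (4 kb) for replicate 2. On YHet 74.6% of windows were in the same state, with 24 covered in replicate 1 alone and 64 in replicate 2 alone, and the longest runs were 32001 to 37000 and 77001 to 82000, of 5 kb each. Of the windows covered in either replicate, 74.2% on XHet and 55.8% on YHet were covered in both. Within XHet this share was 34 of 61 (55.7%) in the first 128 windows, close to that of YHet, and 55 of 59 (93.2%) in the other 76. Over all sequences without Uextra, 19145 windows were covered in replicate 1, 20469 in replicate 2 and 17929 in both. The shared over the combined length, the Jaccard index, was 0.740 on XHet and 0.551 on YHet. Each is a single value over both libraries, so the difference has no replicate error and was not tested. Read numbers are unknown, and their part in it was not tested.

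For comparison, 89.9% of covered windows on 2LHet, 92.8% on 3LHet, 92.0% on 3RHet and 94.2% on chromosome 4 were covered in both replicates. These sequences hold assembled heterochromatin of the autosomes and the small heterochromatic chromosome. Both sex chromosome sequences were below each of them in this measure. The arm sequence of the X, at 63.8%, was below XHet and above YHet. XHet and YHet were also below the autosomal sequences and chromosome 4 in cover. This was 66.0% ± 3.2 on 2LHet, the lowest of these 4, against 51.7% ± 3.1 on XHet and 44.1% ± 8.4 on YHet (SD, n = 2). The median window value of YHet, 2.23 ± 0.14, lay within the replicate spread of 2LHet with 2.25 ± 0.08 and 3LHet with 2.25 ± 0.07. It lay above the spread of 3RHet with 2.12 ± 0.04, a mean that falls within the YHet spread. XHet, with 1.51 ± 0.23, was below chromosome 4 with 1.95 ± 0.04.

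**Figure D3:**
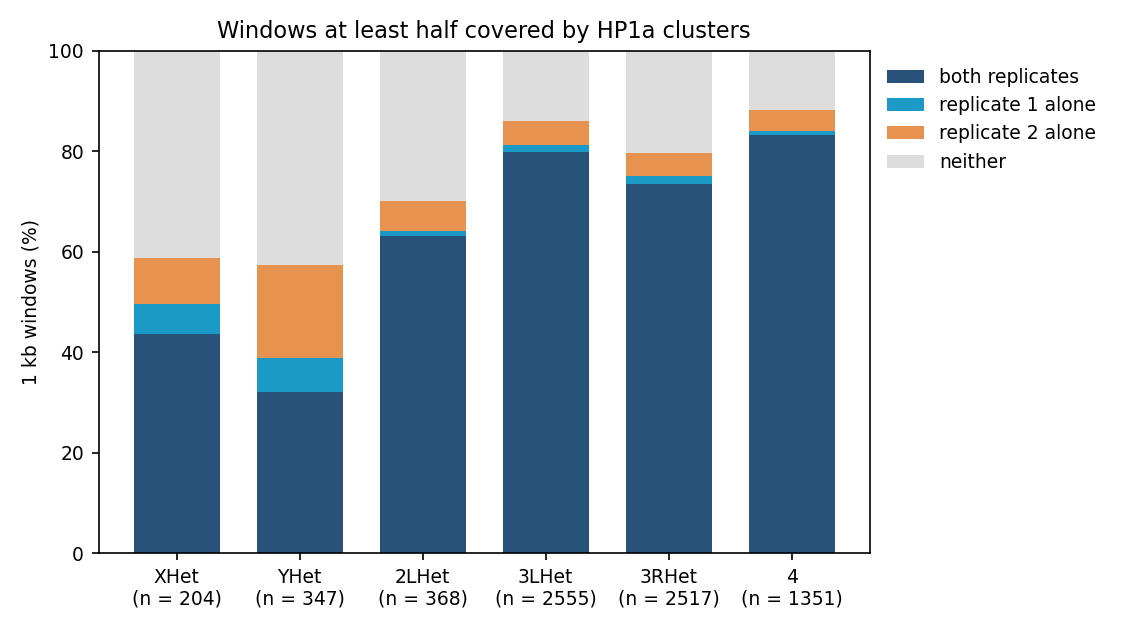
Share of 1 kb windows at least 50% covered by clusters in both replicates, in 1 replicate alone or in neither, for XHet, YHet, 3 autosomal heterochromatin sequences and chromosome 4, with the number of windows below each bar. Windows covered in 1 replicate alone make up 15.2% of XHet and 25.4% of YHet, above each of the other 4 sequences.

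The higher cover of YHet in replicate 2 came with fewer but wider clusters in the list as deposited. YHet had 45 clusters in replicate 1, of median width 2162 bp, and 40 in replicate 2, of median width 3422 bp. On XHet there were 22 and 23, with medians of 2543 bp and 2436 bp. On YHet 10 replicate 2 clusters each overlapped more than 1 replicate 1 cluster, and on XHet 2 did. The cluster from 137310 to 154840, for one, overlapped 4 clusters of replicate 1 from 136537 to 152429. When clusters within 1 kb of each other were joined, the order of the counts turned, with 28 in replicate 1 and 32 in replicate 2, of median width 3545 bp and 4300 bp. YHet cover was then 40.0% in replicate 1 and 51.3% in replicate 2. The replicates differed by 11.2 percentage points, against 11.9 before joining.

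Of the XHet clusters, 2 of 22 in replicate 1 and 4 of 23 in replicate 2 did not overlap the other list. On YHet this held for 6 of 45 and 10 of 40. Unmatched clusters were counted on XHet and YHet only, so whether these shares are unusual for the lists is unknown. On XHet the unmatched clusters were low to middling in value, from 0.70 to 1.67. One of them, from 117272 to 120103 in replicate 1, ended 28 bases before an unmatched cluster of replicate 2 that ran from 120131 to 121751. On YHet the unmatched clusters included the highest YHet value of each replicate. The cluster from 104886 to 106515 in replicate 1 had 3.41 (10.7-fold), and that from 158361 to 159744 in replicate 2 had 4.31 (19.9-fold). They were 1630 bp and 1384 bp wide. The value of the first was held by 23 clusters of its list and that of the second by 2. The series list covered both fully.

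Where 1 cluster matched 1 cluster, edges and values were closer on XHet. There were 14 such pairs on XHet and 17 on YHet. The median distance between matching edges was 349 bp over 28 edges on XHet and 602 bp over 34 edges on YHet. The median absolute difference in value was 0.14 on XHet and 0.45 on YHet, with replicate 1 higher in 7 of 14 and in 9 of 17 pairs. Across pairs, the Spearman correlation of the values was 0.925 and Pearson's r 0.880 on XHet, and 0.334 and 0.364 on YHet. Pairs share their libraries, and XHet spans the step from low to high values while YHet has a narrower range, so the correlations are given as a description.

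**Figure D4:**
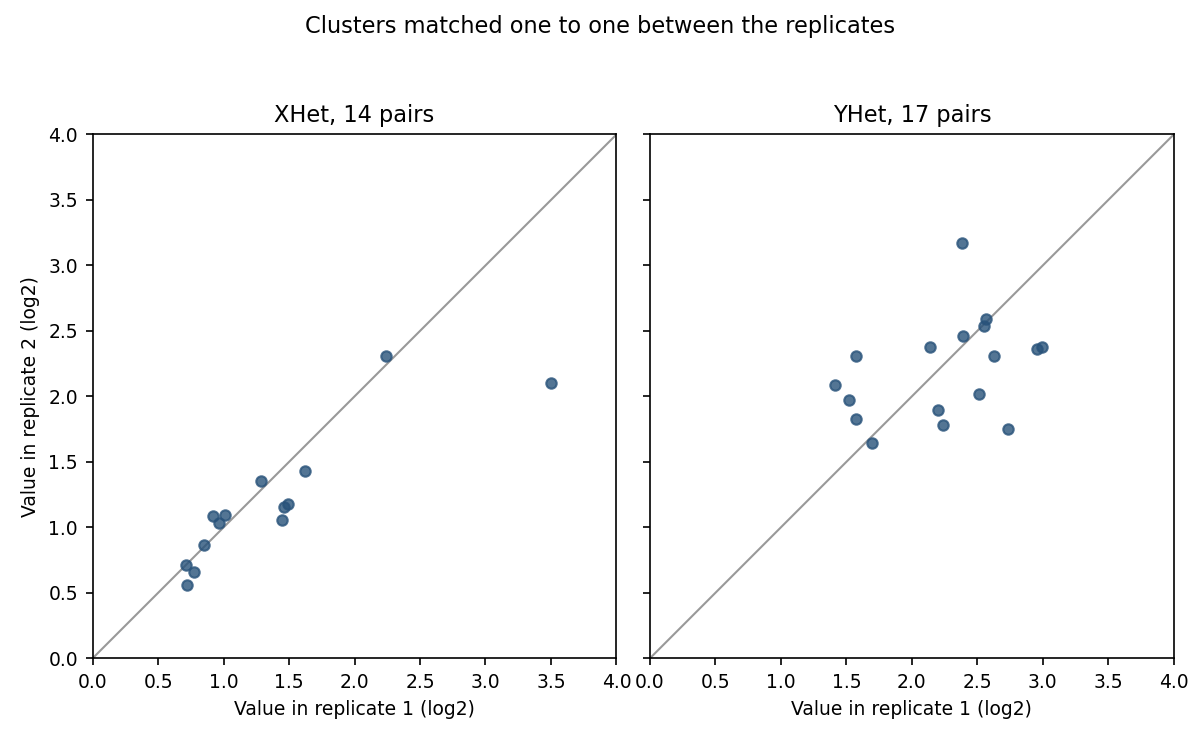
Value in replicate 2 against value in replicate 1 (both log2) for clusters matched one to one, 14 on XHet and 17 on YHet, with the line of equal values. On XHet all but 1 pair differ by at most 0.39 in value, the exception being the pair of 3.50 and 2.11, and on YHet the median absolute difference is 0.45.

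In the replicate lists, exact repeats of a value were more frequent on YHet. Of its clusters, 26 of 45 in replicate 1 (57.8%) and 22 of 40 in replicate 2 (55%) shared their exact value with another cluster of the list, against 3 of 22 (13.6%) and 6 of 23 (26.1%) on XHet. The mean share of both replicates was 56.4% on YHet and 19.9% on XHet. It was 22.5% on 2LHet, 24.7% on 3LHet, 19.4% on 3RHet, 5.81% on chromosome 4 and 14.7% on the arm sequence of the X. YHet was thus above each of these sequences, and XHet lay within their range. No share over all sequences is given here. In the series list the shares of YHet and XHet were close, with 9 of 35 (25.7%) on YHet and 6 of 26 (23.1%) on XHet. In the replicates these YHet clusters were narrower, with a median width of 1936 bp against 3789 bp in replicate 1 and 2190 bp against 5704 bp in replicate 2. Their median values were 2.20 against 2.33 and 2.28 against 2.02, so they were not weaker in both replicates. Without repeated values, YHet cover was 27.3% and XHet cover 46.8%, as means of both replicates, and XHet exceeded YHet by 19.5 percentage points.

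In the series list, 150 windows of XHet (73.5%) and 233 of YHet (67.1%) were at least 50% covered, against 17.8% over the genome. It filled 31 windows of XHet and 34 of YHet that neither replicate covered, and left 53 (26.0%) and 114 (32.9%) uncovered in all 3 lists. Only 1 window of XHet and none of YHet that a replicate covered was missing from it. Its median window value was 1.09 on XHet and 2.06 on YHet, a difference of 0.97, in the same direction as in the replicates. The first 128 windows of XHet had a median of 0.80 and the rest 2.23 in this list, so the step was there as well. How the replicates were combined is not given in the sources used here, so the series list is no independent library.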

How the data were processed

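Per the file headers, the deposited lists of enriched clusters use FlyBase release 5. The deposited cluster values are taken as log2 enrichment because many recur shifted by exactly 1, as the headers give no unit. The submitters' processing notes name Bowtie 0.12.7. The cluster caller, its threshold and read numbers are not given in the sources used, so the depth is unknown and precision rests on 2 replicates.

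Overlapping clusters were merged for cover. A window was called covered when at least 50% of its bases lay under clusters. Covered shares refer to whole windows, with 112 bp dropped on XHet and 38 bp on YHet. Clusters were paired with the cluster of the other replicate that shared most bases. Named regions were, per sequence, the 3 widest clusters and the highest and lowest value of each replicate, the 3 longest runs of windows covered in both or neither replicate, the longest run covered in each replicate alone, and the end windows; other regions, such as the matched cluster near the end of YHet and the unmatched clusters, were chosen after their values were seen. The windows and lists were chosen with earlier results of these data known. The window count was checked base by base on simulated data. No test was run, since an exact permutation test over 2 paired libraries has a smallest p of 0.5. The tools were matplotlib 3.10.9, scipy 1.17.1, pandas 2.3.3, numpy 2.4.6 and Python 3.11.15. Input libraries have no list and entered only through the clusters.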

Additional observations from a re-analysis of the deposited data

How the results depend on the processing

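Among 76 alternative values, 48 stayed within the replicate SD or, for shares of windows, stayed within a 95% Wilson interval that treats windows as independent, 27 moved by more and 1 reversed. Cover in bases does not depend on window size apart from the dropped end, so its values at 500 bp and 2 kb could hardly move. Leaving out either replicate cannot move a mean of 2 by more than their SD. The range was then 49.5% to 53.9% for XHet cover, 38.2% to 50.1% for YHet cover, 3.82 to 11.3 points for their difference (XHet minus YHet), 1.35 to 1.67 and 2.13 to 2.33 for the XHet and YHet median values, and 0.65 to 0.78 for YHet minus XHet. With clusters whose value reached their list's median, XHet cover was 28.1%, the cover difference -9.87, the XHet median 2.24 and the value difference 0.018. Windows covered in both replicates were then 27.0% on XHet and 23.3% on YHet, and those in the same state 98.0% and 69.7%. By construction this setting removes the low values of a list. Without repeated values, cover was 46.8% on XHet and 27.3% on YHet, the difference 19.5, the value difference 0.81, and 36.8% and 13.5% of windows were covered in both. The series list gave covers of 73.6% and 67.4%, medians of 1.09 and 2.06 and a value difference of 0.97. Medians over clusters gave 1.20 on XHet and a difference of 0.97. Windows of 2 kb gave a value difference of 0.82, and windows of 500 bp one of 0.42 with an XHet median of 1.81. Windows covered in both were 55.4% on XHet and 41.5% on YHet when any base counted, and 34.3% and 20.7% when all bases had to be covered. YHet minus XHet in median value was above 0 in the settings run for it, but the 0.018 lies inside the replicate SD of 0.09. Between ChIP and input, the groups that share replicate numbers, no paired analysis was possible because the inputs have no list here. XHet and YHet were compared within each library. Read numbers are unknown, so what depth limits could not be judged.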

Other observations

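Clusters in part of XHet were evenly spaced. Between 86 kb and 132 kb, each of the 3 lists had 8 clusters, and the distance from centre to centre was 5.89 ± 0.75 kb in replicate 1 (SD over 7 distances), 6.02 ± 1.42 kb in replicate 2 and 5.78 ± 0.46 kb in the series list. The distances ran from 4.65 to 6.73 kb, from 3.96 to 8.32 kb and from 5.07 to 6.26 kb. The SD was 12.7%, 23.6% and 8.00% of the mean. Before 86 kb on XHet it was 81.9%, 63.0% and 57.8%, and on YHet 65.7%, 41.5% and 52.5%. The least even distances of replicate 2, of 8.32 and 3.96 kb, lay on either side of its cluster from 120131 to 121751, next to the replicate 1 cluster from 117272 to 120103. The stretch was chosen because its clusters looked evenly spaced, so these figures describe it and test nothing. The values of its first 7 clusters ran from 1.01 to 1.67 in replicate 1 and from 1.06 to 1.43 in replicate 2, and the last had 2.24 and 2.31.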
